A study of Mus musculus with 4 samples.

Results

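TGFb added to mouse CD4 T cells in culture is set here against IL2 without TGFb, by what it did to the expression difference of Treg over T-effector cells. The comparison rests on 6 of the 13 two-colour arrays of the series, chosen by their labelled culture: 3 arrays with TGFb and 3 with IL2 alone, or 12 of 26 dye channels. Each array carried Treg RNA in one dye and T-effector RNA in the other, so every array gives its own log2 ratio of Treg over T-effector, and every gene has a signal in each sample. The starting material was CD4+ lymph node cells kept on anti-CD3 coated at 1 ug/ml for 4 days. The TGFb group had 3 days with TGFb at 4 ng/ml and IL2 at 100 units/ml, and the IL2 group 3 days with IL2 at 100 units/ml and no TGFb. The cultures of both groups shared the anti-CD3 and the IL2. Strain, age, the step that separated Treg from T-effector cells, and whether arrays came from separate cultures or animals are not given in the labels. Each p-value reported thus reflects array-to-array spread alone, and that spread may be technical.

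Regulatory T cells (Treg) are CD4 T cells that restrain immune responses and are defined by the transcription factor Foxp3. TGFb binds a serine/threonine kinase receptor that phosphorylates Smad2 and Smad3, and Smad complexes with Smad4 then act on target genes, among them inhibitors of the pathway itself. In activated CD4 T cells TGFb with IL2 is known to favour Foxp3 and the integrin chain Itgae and to restrain Il2. Ikzf2, also called Helios, is a transcription factor abundant in Treg that develop in the thymus. Ctla4 is an inhibitory receptor that competes with Cd28 for its ligands, and Atp1b1 is the beta subunit of the sodium pump.

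Slides, 5 in number, are named A to E here. TGFb arrays 1, 2 and 3 were on slides E, B and D, and IL2 arrays 1, 2 and 3 on slides A, D and C, so slide D is the only one that held both groups, an array of each in the same dye orientation. Dyes were not balanced: Treg was in Cy3 on TGFb arrays 1 and 2 and IL2 array 1. It was in Cy5 on IL2 arrays 2 and 3 and, with TGFb, on array 3 only. Ratios and signals printed per array, and whether they overlap, are not adjusted for dye, whereas the fitted changes are. Over the 6 arrays, 38.9% to 69.7% of probes were well above background in Treg channels and 46.2% to 65.8% in T-effector channels. The Cy3 signal of negative controls was 123 on TGFb array 2, against 3.59 to 22.6 on the other 5 arrays. Among spots brighter than the array's median, a spatial trend held 51.2% of the variance of the log ratios on TGFb array 1. On the other arrays it held 1.74% to 18.6%. Across genes, the ratios of TGFb arrays correlated with each other at 0.29 to 0.61, those of IL2 arrays at 0.38 to 0.68, and those of a TGFb with an IL2 array at -0.30 to 0.16. Genes are not independent replicates, so these values describe the arrays only. The Treg and T-effector samples differed in Y-linked genes under either culture: Ddx3y was well above background in 3 of 3 Treg channels and 0 of 3 T-effector channels with TGFb, and likewise with IL2, and the median ratio of 4 such genes was 1.06 with TGFb and 1.12 with IL2. The part of this difference in the ratios was not tested, and 0 of the 4 passed the test of a ratio change with TGFb, against 5.87% of all genes. With 4 genes that count says little, and on slide D by itself their median ratio change was 0.59.

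Changes below are TGFb minus IL2 on the log2 scale, ± standard error, with 3 arrays in each group. The ratio was fitted over all 13 arrays with a dye term, and the signals of the Treg and T-effector samples in a separate fit over all 26 channels. With slide as a random block, each sample was fitted by itself, without the link between the channels of an array. Sample calls under that setting thus differ from the main fit in more than the slide. A gene passed where limma's p, adjusted by Benjamini-Hochberg over 19901 genes, was under 0.05. In bulk RNA, fewer cells of a type and less RNA per cell cannot be told apart.

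Ikzf2 lost most of its Treg lead with TGFb, and only the Treg sample passed by itself. Its log2 ratio was 0.41, 0.58 and 1.25 with TGFb and 3.42, 3.56 and 2.91 with IL2. The groups do not overlap. Ikzf2 had a Treg signal of 7.89, 8.06 and 8.24 with TGFb and 10.39, 10.16 and 9.64 with IL2, and a T-effector signal of 7.49, 7.48 and 6.99 with TGFb and 6.97, 6.61 and 6.74 with IL2. The ratio fell by 2.42 ± 0.27 (adjusted p = 0.00108) and the Treg signal by 1.94 ± 0.21 (adjusted p = 1.65e-06), while the T-effector change of 0.48 ± 0.21 did not pass (adjusted p = 0.232). The T-effector values do not overlap either, at 6.99 to 7.49 with TGFb and 6.61 to 6.97 with IL2. On slide D by itself the change was -1.93 in Treg and 0.38 in T-effector. The mean ratio was lower with TGFb for all 5 probes of Ikzf2, with differences of -2.55 to -0.74. Of the other tested Ikaros factors, Ikzf1, Ikzf3, Ikzf4 and Ikzf5, 0 passed in the ratio, in Treg or in T-effector, against 5.87%, 7.96% and 4.68% of all genes.

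Ctla4 stayed higher in Treg on every array, by less with TGFb. Its ratio was 0.29, 0.80 and 0.66 with TGFb and 1.53, 1.76 and 1.27 with IL2, and the groups do not overlap. Ctla4 had a Treg signal of 9.03, 9.08 and 9.02 with TGFb and 9.53, 9.66 and 9.08 with IL2, and a T-effector signal of 8.74, 8.27 and 8.36 with TGFb and 7.99, 7.90 and 7.81 with IL2. The T-effector values do not overlap, whereas the IL2 array with the lowest Treg signal is level with the highest TGFb array. The ratio fell by 0.86 ± 0.20 (adjusted p = 0.0304), and neither sample passed by itself, with -0.34 ± 0.16 in Treg (adjusted p = 0.253) and 0.52 ± 0.16 in T-effector (adjusted p = 0.0748). With slide as a random block the T-effector change passed (0.46, adjusted p = 0.0352), and with slide as a fixed block the Treg change did (-0.57, adjusted p = 0.0149). With median centring of the arrays in place of loess the ratio change was 0.02, in a setting where the median over all genes was 0.43. The call was lost in 5 of the 13 fits that each leave out 1 array (adjusted p up to 0.172 without TGFb array 3).

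Atp1b1 went the other way, through the Treg sample. Its ratio was 3.21, 2.55 and 2.38 with TGFb and 0.12, 0.25 and 0.44 with IL2. The samples were within 0.44 of each other on every IL2 array and at least 2.38 apart on every TGFb array. Atp1b1 had a Treg signal of 10.71, 10.73 and 10.37 with TGFb and 7.49, 7.18 and 7.67 with IL2, and a T-effector signal of 7.50, 8.18 and 7.99 with TGFb and 7.36, 6.93 and 7.23 with IL2. The ratio rose by 2.38 ± 0.20 (adjusted p = 0.000214) and the Treg signal by 3.13 ± 0.24 (adjusted p = 8.7e-09). The T-effector change of 0.75 ± 0.24 did not pass (adjusted p = 0.0801), but it did with slide as a random block (0.79, adjusted p = 0.00701) or as a fixed block (0.82, adjusted p = 0.00646). On slide D the changes were 3.19 in Treg and 1.07 in T-effector.

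**Figure D1:**
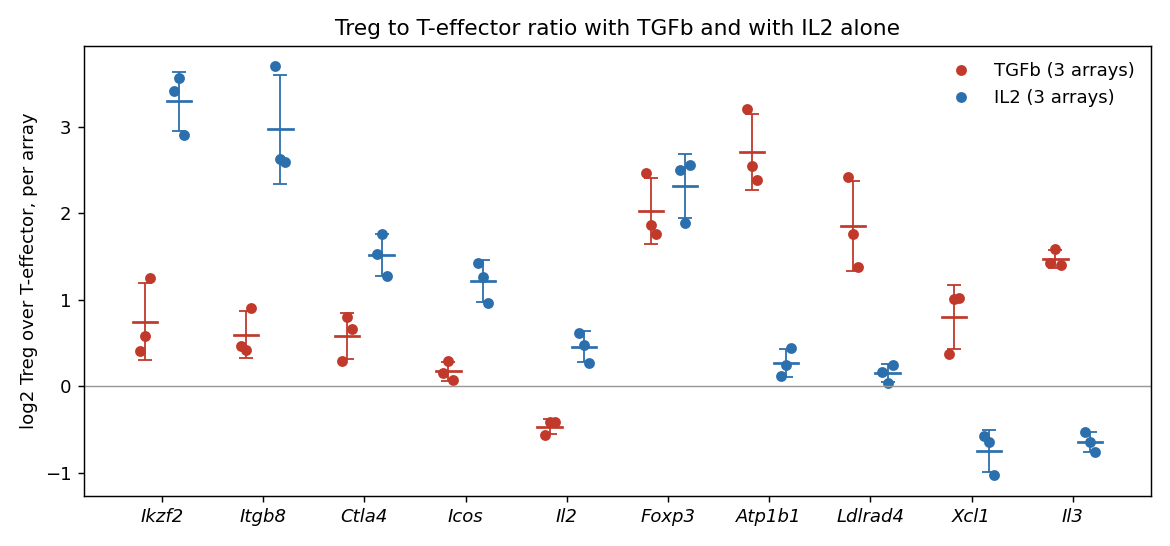
Log2 ratio of Treg over T-effector on each array for 10 genes, with the 3 TGFb arrays left of the 3 IL2 arrays. Points are arrays, lines the mean and error bars the SD. Ikzf2, Itgb8, Ctla4, Icos and Il2 lie lower with TGFb (with median centring the changes of Ctla4 and Icos are 0.02 and 0.08), Atp1b1, Ldlrad4, Xcl1 and Il3 lie higher, and Foxp3 overlaps. The T-effector signal of Itgb8 was not well above background on the TGFb arrays.

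Foxp3 was higher in Treg on all 6 arrays. Its ratio was 2.47, 1.86 and 1.76 with TGFb and 2.5, 1.89 and 2.56 with IL2, and the groups overlap. The change was -0.44 ± 0.24 in the ratio (adjusted p = 0.295), 0.23 ± 0.23 in Treg (adjusted p = 0.681) and 0.66 ± 0.23 in T-effector (adjusted p = 0.111), and none of the 3 passed. The ratio change was 0.15 with median centring and 0.03 with slide as a fixed block, and with the spatial trend removed it passed (-0.65, adjusted p = 0.0389). The T-effector change passed with slide as a fixed block (0.72, adjusted p = 0.0401) and with the spatial trend removed (0.77, adjusted p = 0.0483).

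Promoters of 4 genes are printed because their ratios show the rise (Atp1b1, Xcl1) and the fall (Ctla4, Il2). They come from RefSeq on GRCm38.p6 and run from 250 bases before to 50 after the start site, 5′ to 3′ on the gene's strand. Of the 3 marker genes 2 had an entry. Capitals mark matches to CAGAC or, for the other strand, GTCTG, the core of a Smad site, or to TGANTCA, the AP-1 motif, searched on both strands. Among 32817 promoters of this length 49.6% hold the first motif and 7.81% the second, and a match describes these letters only.
Atp1b1, chr1:164458306-164458605, minus strand: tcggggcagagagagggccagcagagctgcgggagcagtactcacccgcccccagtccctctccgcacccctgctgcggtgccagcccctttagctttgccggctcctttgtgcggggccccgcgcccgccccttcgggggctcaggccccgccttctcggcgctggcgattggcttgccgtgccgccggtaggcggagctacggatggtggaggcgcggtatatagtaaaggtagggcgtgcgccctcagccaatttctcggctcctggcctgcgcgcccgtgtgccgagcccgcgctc
Xcl1, chr1:164935473-164935772, minus strand: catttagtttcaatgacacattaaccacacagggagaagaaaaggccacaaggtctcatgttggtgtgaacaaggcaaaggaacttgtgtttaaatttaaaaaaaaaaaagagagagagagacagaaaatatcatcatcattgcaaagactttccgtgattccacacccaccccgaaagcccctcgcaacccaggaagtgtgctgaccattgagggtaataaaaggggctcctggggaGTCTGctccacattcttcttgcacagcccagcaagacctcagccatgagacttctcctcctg
Ctla4, chr1:60908775-60909074, plus strand: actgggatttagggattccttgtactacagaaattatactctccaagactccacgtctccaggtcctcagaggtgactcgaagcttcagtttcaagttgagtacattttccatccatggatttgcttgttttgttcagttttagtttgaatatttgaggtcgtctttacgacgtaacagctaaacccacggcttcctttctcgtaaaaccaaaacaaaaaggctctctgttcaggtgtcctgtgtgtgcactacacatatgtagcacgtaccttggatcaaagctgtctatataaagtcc
Il2, chr3:37125905-37126204, minus strand: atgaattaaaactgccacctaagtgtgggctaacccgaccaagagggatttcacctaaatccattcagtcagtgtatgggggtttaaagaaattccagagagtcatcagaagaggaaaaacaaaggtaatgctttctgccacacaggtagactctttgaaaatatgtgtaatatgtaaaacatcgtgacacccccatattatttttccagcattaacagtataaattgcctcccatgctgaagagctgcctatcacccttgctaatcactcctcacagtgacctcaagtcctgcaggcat
Xcl1 has 1 match to the first motif, at position -12 from the start site, and the other 3 promoters have 0. The AP-1 motif has 0 matches in the 4 promoters.

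Over all 19901 genes the ratio passed for 1168 (5.87%), higher with TGFb for 469 (2.36%) and lower for 699 (3.51%), and 4745 genes had an unadjusted p under 0.05. In Treg 1584 genes passed (7.96%), 749 higher (3.76%) and 835 lower (4.2%), and in T-effector 931 (4.68%), 410 higher (2.06%) and 521 lower (2.62%). Of the 1168 genes, the Treg sample by itself passed in 383 (32.8%), the T-effector sample by itself in 158 (13.5%), both in the same direction in 77 (6.59%) and both in opposite directions in 12 (1.03%). In 538 genes (46.1%) the ratio passed while neither sample did. Where the ratio rose, the median change was 0.63 in Treg and -0.15 in T-effector. Where it fell, the median change was -0.44 in Treg and 0.59 in T-effector, and 618 of these 699 genes had a positive T-effector change.

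**Figure D2:**
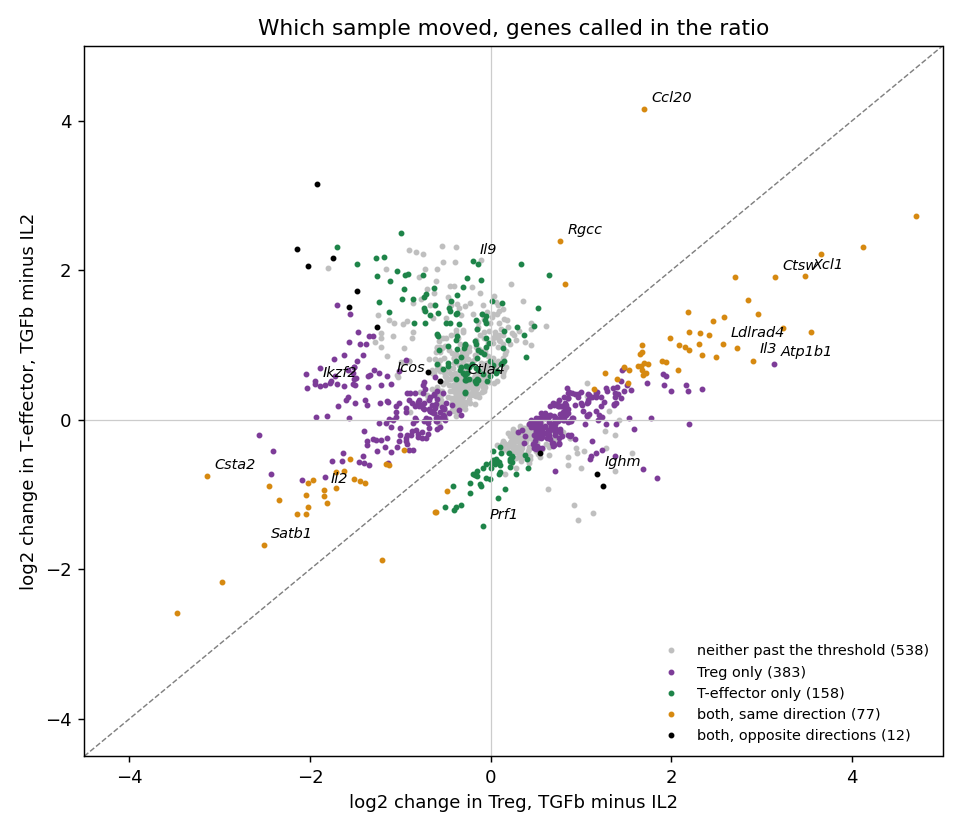
Log2 change with TGFb in Treg (horizontal) against that in T-effector (vertical) for the 1168 genes whose ratio passed, marked by class. On the dashed line both samples change equally, so genes above it have a lower ratio with TGFb and genes below it a higher one. The 383 genes where only Treg passed spread along the horizontal axis, and the 158 where only T-effector passed along the vertical one.

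The number of calls and the class of a gene depended on the arrays and on the treatment of slides and background. The ratio passed for 81 genes without TGFb array 3, 369 without IL2 array 2, 472 without IL2 array 1, 489 without TGFb array 1, 603 without TGFb array 2, 554 without array 3 of TGFb with IL6, 1987 without array 2 of IL6, 230 without slide B and 74 where no spot was left out when fitting the background model. Median centring turned the split to 7453 higher and 950 lower. With slide as a random block, where each sample was also fitted by itself, 3059 genes passed in T-effector. Of the 538 genes with neither sample past the threshold 274 then passed in T-effector only and 20 in Treg only. Of the 383 genes of the Treg class 249 stayed in it, and of the 158 of the T-effector class 145 did.

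Under loess, most ratios that fell crossed from a Treg lead to a T-effector lead. Where the zero of a ratio lies rests on the normalization, here and wherever a sign is said to turn below. With median centring the median change over all genes was 0.43. Of the 699 genes, 582 turned in this way (median ratio -0.35 with TGFb and 0.65 with IL2), 100 narrowed without turning (0.22 with TGFb and 1.66 with IL2) and 17 widened. Of the 469 genes whose ratio rose, 373 turned upward (0.40 with TGFb and -0.32 with IL2), 81 widened a Treg lead (1.1 with TGFb and 0.16 with IL2) and 15 narrowed. Turns by at least 0.5 on each side numbered 125 downward and 18 upward.

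Of the 28 genes on a list of Treg core genes 26 were tested, and 8 fell and 0 rose in the ratio, with a median change of -0.42 against -0.02 over all genes. Over all genes 3.51% fell and 2.36% rose in the ratio, the background for every ratio count of list members below. For the counts in Treg the background is 3.76% higher and 4.2% lower, and in T-effector 2.06% higher and 2.62% lower. The median ratio of the list was 0.51 with TGFb and 0.88 with IL2. In Treg 7 members rose and 9 fell (median -0.31), and in T-effector 7 rose and 2 fell (median 0.45). Without 1 array at a time, 4 to 10 members fell, 0 to 1 rose and the median ran from -0.52 to -0.28. With median centring 2 fell, 6 rose and the median was 0.36, against 0.43 over all genes. Besides Ikzf2 and Ctla4 the members that fell were Itgb8, Icos, Tnfrsf9, Gpr83, Plagl1 and Swap70.

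Itgb8, an integrin chain with which Treg activate latent TGFb, had a smaller Treg lead with TGFb, and its Treg signal fell. Its ratio was 0.46, 0.42 and 0.91 with TGFb and 3.70, 2.63 and 2.59 with IL2, with no overlap, and its change passed (adjusted p = 0.00674). The T-effector signal was not well above background on any TGFb array, so the ratios there divide by a dim signal and no size is given here for the change. The Treg signal fell by 2.03 ± 0.29 (adjusted p = 5.94e-05). Icos, a costimulatory receptor, moved in both samples. Its ratio was 0.15, 0.29 and 0.07 with TGFb and 1.43, 1.26 and 0.96 with IL2, with no overlap. It fell by 0.56 ± 0.14 in Treg (adjusted p = 0.0111) and rose by 0.52 ± 0.14 in T-effector (adjusted p = 0.0303), with a ratio change of -1.09 ± 0.13 (adjusted p = 0.00179), or 0.08 with median centring. A second probe of Icos differed by -0.24 in its mean ratio.

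Tnfrsf9, the costimulatory receptor 4-1BB, fell by 0.74 ± 0.14 in Treg and gave 0.15 ± 0.14 in T-effector (ratio change -0.89 ± 0.14, or 0.26 with median centring). Gpr83, an orphan receptor abundant in Treg, rose by 1.5 ± 0.19 in T-effector and gave 0.52 ± 0.19 in Treg (ratio change -0.98 ± 0.18, or 0.11 with median centring). The Treg rise of Gpr83 passed with slide as a random block (0.70, adjusted p = 0.0162) and as a fixed block (0.68, adjusted p = 0.00914). Plagl1, a zinc finger transcription factor, rose by 0.74 ± 0.20 in T-effector and gave -0.60 ± 0.20 in Treg (ratio change -1.34 ± 0.20, or -0.61 with median centring). Swap70, a signalling protein of lymphocytes, had a ratio change of -2.03 ± 0.46 with neither sample past the threshold, or -0.98 with median centring, and its second probe differed by -0.67. Its T-effector change passed with slide as a fixed block (1.16, adjusted p = 0.0354), and the Treg change of Plagl1 passed with slide as a random block (-0.54, adjusted p = 0.0376) and as a fixed block (-0.57, adjusted p = 0.0142). Without TGFb array 3 the calls of Tnfrsf9 (adjusted p = 0.0797), Gpr83 (0.0823) and Swap70 (0.145) were lost. Of the 13 fits that each leave out 1 array, 6 lost Swap70, 2 Gpr83 and 1 Tnfrsf9.

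Other core genes changed in both samples while the ratio did not pass. Nt5e, the ectoenzyme CD73, rose by 3.80 ± 0.37 in Treg and 3.87 ± 0.37 in T-effector. Socs2, an inhibitor of cytokine signalling, rose by 2.57 ± 0.32 in Treg and 2.25 ± 0.32 in T-effector, and Capg, an actin capping protein, by 1.69 ± 0.21 and 1.77 ± 0.21. Cd83, a surface receptor of activated lymphocytes, fell by 1.54 ± 0.21 in Treg and 1.35 ± 0.21 in T-effector. Itgae, which pairs with Itgb7 to hold lymphocytes in epithelia, rose by 2.46 ± 0.24 in Treg and 1.70 ± 0.24 in T-effector. Its ratio was 2.94, 3.36 and 3.17 with TGFb and 2.30, 2.88 and 2.37 with IL2, and the change of 0.76 ± 0.25 did not pass although the arrays do not overlap (adjusted p = 0.0962).

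Further core genes passed in Treg and neither in T-effector nor in the ratio. Il2ra, the IL2 receptor chain CD25, rose by 0.91 ± 0.22 in Treg and gave 0.20 ± 0.22 in T-effector (ratio change 0.70 ± 0.28, adjusted p = 0.149), and with slide as a random block the Treg change did not pass (0.69, adjusted p = 0.107). The mean ratio of the Il2ra probe used differed by 0.58, and its other probes by 0.68, -0.1 and 0.77. Nrp1, a semaphorin receptor, rose by 0.76 ± 0.21 in Treg, and its ratio passed with slide as a random block (0.72, adjusted p = 0.0426) and as a fixed block (0.91, adjusted p = 0.0206). The TNF receptors Tnfrsf18 (GITR) and Tnfrsf4 (OX40) fell in Treg by 0.62 ± 0.15 and 0.69 ± 0.16, and the ratio of Tnfrsf4 passed with slide as a random block (-0.68, adjusted p = 0.0403) and as a fixed block (-0.92, adjusted p = 0.0298). With median centring the ratio change of Tnfrsf4 was 0.71.

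**Figure D3:**
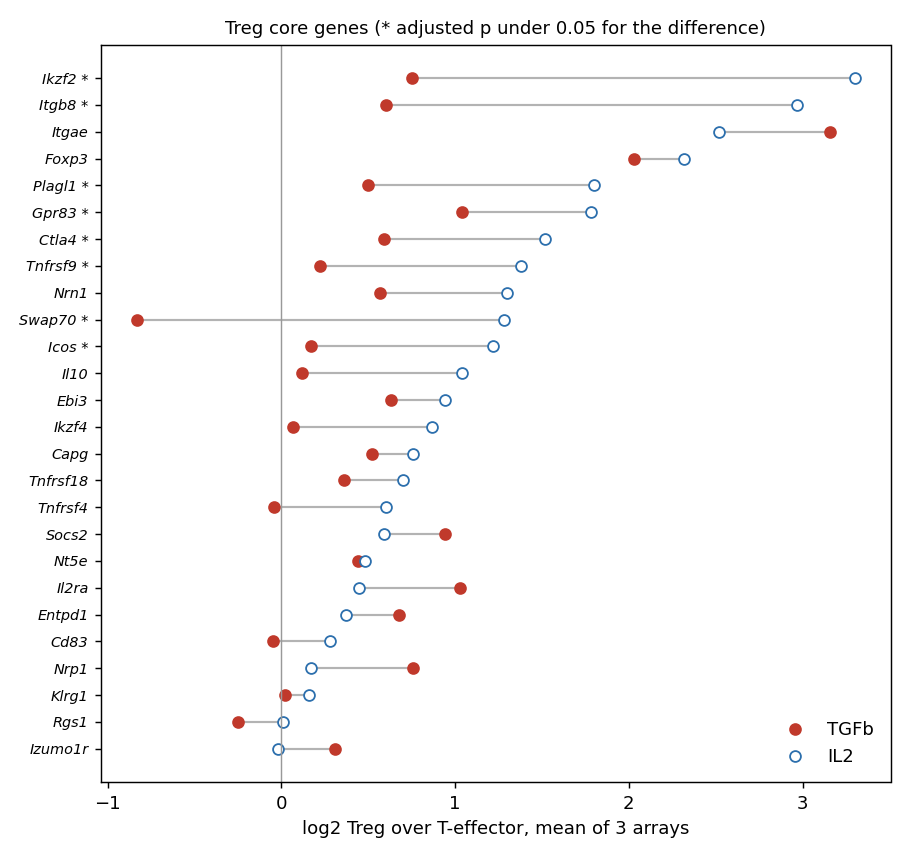
Mean log2 ratio of Treg over T-effector for the 26 Treg core genes tested, with TGFb as filled and IL2 as open points. Stars mark the 8 genes whose ratio change passed, each lower with TGFb under loess (with median centring the changes of Ctla4, Icos, Tnfrsf9 and Gpr83 are 0.02, 0.08, 0.26 and 0.11).

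Of 27 TGFb-induced genes and feedback inhibitors, 3 rose and 2 fell in the ratio (median 0.34), 15 rose and 4 fell in Treg (median 0.68), and 6 rose and 1 fell in T-effector (median 0.24). Of the inhibitors of the Smad pathway, Smad7, Skil and Ldlrad4 rose in both samples, and Smad6 and Smurf2 passed in neither. Smad6 was dim, well above background in Treg on 1 of 3 arrays under either culture. In T-effector it was so on 2 of 3 arrays with TGFb and 0 of 3 with IL2. Smad7, which targets the receptor for degradation, rose by 1.36 ± 0.21 in Treg and 1.1 ± 0.21 in T-effector, and its ratio change of 0.27 ± 0.16 did not pass. Skil, a corepressor of Smads, rose by 1.68 ± 0.12 in Treg and 1.29 ± 0.12 in T-effector (ratio change 0.39 ± 0.14). The receptor chain Tgfbr1 rose by 1.79 ± 0.19 in Treg and 1.84 ± 0.19 in T-effector (ratio change -0.05 ± 0.16, or 0.91 with median centring). Klf10, an early response gene, rose by 1.15 ± 0.16 in Treg and 1.16 ± 0.16 in T-effector.

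Ldlrad4, a membrane protein that sequesters Smad2 and Smad3, rose in both samples and more in Treg. Its ratio was 2.42, 1.76 and 1.38 with TGFb and 0.16, 0.04 and 0.25 with IL2, with no overlap. The Treg signal was 10.03, 9.96 and 9.56 with TGFb and 7.21, 7.0 and 7.41 with IL2, and the T-effector signal 7.60, 8.20 and 8.18 with TGFb and 7.05, 6.95 and 7.17 with IL2. It rose by 2.57 ± 0.18 in Treg (adjusted p = 2.97e-09), by 1.01 ± 0.18 in T-effector (adjusted p = 0.00154) and by 1.56 ± 0.21 in the ratio (adjusted p = 0.00342). The related inhibitor Pmepa1 rose by 1.19 ± 0.20 in Treg and gave 0.46 ± 0.20 in T-effector, and its ratio change of 0.73 ± 0.26 did not pass (adjusted p = 0.119). Ski, a corepressor related to Skil, rose by 1.06 ± 0.15 in Treg (ratio change 0.56 ± 0.19). The T-effector changes of Pmepa1 (0.48, adjusted p = 0.00709) and Ski (0.53, adjusted p = 0.00177) passed with slide as a random block.

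Ahr, the aryl hydrocarbon receptor, rose by 1.44 ± 0.20 in Treg and gave 0.52 ± 0.20 in T-effector (ratio change 0.92 ± 0.16). Jun, an AP-1 subunit, rose by 0.85 ± 0.11 in Treg (ratio change 0.49 ± 0.12). Junb, another AP-1 subunit, fell by 1.14 ± 0.21 in Treg (ratio change -1.37 ± 0.19, or -0.18 with median centring), although the ratios of the arrays overlap, and its second probe differed by -0.51. Id2, an inhibitor of E proteins, had a ratio of -0.76, -0.89 and -0.68 with TGFb and 0.46, 0.17 and 0.15 with IL2, positive on every IL2 array and negative on every TGFb array. It fell by 1.30 ± 0.16 in Treg and gave -0.26 ± 0.16 in T-effector (ratio change -1.04 ± 0.13, or 0.15 with median centring), and its second probe differed by -0.38. The T-effector changes of Ahr (0.51, adjusted p = 0.0186) and Id2 (-0.36, adjusted p = 0.0246) passed with slide as a random block, and with slide as a fixed block the ratio of Jun did not (0.52, adjusted p = 0.0923). The fit that left out TGFb array 3 lost the calls of Ahr (adjusted p = 0.109), Jun (0.212) and Junb (0.0545). Of the 13 fits that each leave out 1 array, 9 lost Jun, 2 Ahr and 1 Junb.

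Of 20 TGFb ligands, receptors and Smads, 2 rose and 2 fell in the ratio, 7 rose and 1 fell in Treg, and 4 rose in T-effector. Tgfb3, a ligand, rose by 0.77 ± 0.14 in Treg (ratio change 0.89 ± 0.18), and Bmpr2, a BMP receptor, by 1.45 ± 0.21 (ratio change 0.78 ± 0.17). With Agilent's processed signals the changes of Tgfb3 were 1.67 in Treg and 2.22 in the ratio. Its Treg signal was well above background on 2 of 3 IL2 arrays. Itgav, the partner chain of Itgb8, rose by 0.52 ± 0.13 in T-effector (ratio change -0.55 ± 0.15, or 0.29 with median centring). The T-effector change of Bmpr2 passed with slide as a random block (0.73, adjusted p = 0.00419), and the ratio of Tgfb3 did not pass with slide as a fixed block (0.63, adjusted p = 0.141). Lost without TGFb array 3 were the calls of Tgfb3 (adjusted p = 0.136), Bmpr2 (0.145) and Itgav (0.201). Of the 13 fits that each leave out 1 array, 11 lost Itgav, 5 Bmpr2 and 2 Tgfb3.

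Of 12 tested genes of the sodium pump and its regulators, 2 rose and 0 fell in the ratio and in Treg: Atp1b1 and Sgk1, a kinase that raises sodium transport. Sgk1 had a ratio of 3.02, 2.33 and 2.32 with TGFb and 1.05, 0.99 and 1.67 with IL2. It rose by 2.58 ± 0.32 in Treg and 1.38 ± 0.32 in T-effector, and by 1.21 ± 0.30 in the ratio (adjusted p = 0.0386), a call lost in 6 of the 13 fits (adjusted p up to 0.181 without IL2 array 1). The other beta subunits tested did not pass: Atp1b2 had a ratio change of -1.27 ± 0.34 (adjusted p = 0.0514) and Atp1b3 one of -0.20 ± 0.34.

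Il2, the T cell growth factor, fell in both samples and further in Treg. The Treg signal was 6.51, 6.70 and 6.41 with TGFb and 8.55, 8.33 and 8.32 with IL2, and the T-effector signal 7.07, 7.12 and 6.83 with TGFb and 7.93, 7.85 and 8.05 with IL2. The ratio was -0.57, -0.42 and -0.42 with TGFb and 0.62, 0.48 and 0.27 with IL2, so its sign was turned on every array. It fell by 1.85 ± 0.10 in Treg (adjusted p = 6.36e-11) and 0.94 ± 0.10 in T-effector (adjusted p = 3.45e-06), with a ratio change of -0.91 ± 0.12 (adjusted p = 0.00342), or -0.19 with median centring. The Treg signal was well above background on 2 of 3 TGFb arrays. A second probe of Il2 differed by -0.19 in its mean ratio.

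Il3, a growth factor for myeloid cells, rose in both samples and more in Treg. Its ratio was 1.43, 1.59 and 1.40 with TGFb and -0.53, -0.64 and -0.76 with IL2, with every sign turned. The Treg signal was 10.46, 10.48 and 10.20 with TGFb and 7.51, 7.44 and 7.48 with IL2, and the T-effector signal 9.03, 8.90 and 8.80 with TGFb and 8.05, 8.08 and 8.24 with IL2. It rose by 2.90 ± 0.12 in Treg, 0.79 ± 0.12 in T-effector and 2.11 ± 0.14 in the ratio (adjusted p = 5.51e-05). Il9, a growth factor for mast cells, moved in T-effector instead. Its ratio was -0.33, 0.01 and -0.07 with TGFb and 3.13, 1.98 and 1.46 with IL2. The T-effector signal rose by 2.12 ± 0.38, Treg gave -0.20 ± 0.38, and the ratio fell by 2.32 ± 0.46 (adjusted p = 0.0187, and 0.113 without TGFb array 3), or gave -1.42 with median centring.

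Of 10 T cell chemokines 1 rose and 1 fell in the ratio, 4 rose and 4 fell in Treg, and 5 rose and 4 fell in T-effector. Xcl1, which attracts cross-presenting dendritic cells, had a ratio of 0.37, 1.01 and 1.02 with TGFb and -0.58, -0.64 and -1.03 with IL2, with every sign turned. It rose by 3.48 ± 0.21 in Treg, 1.92 ± 0.21 in T-effector and 1.56 ± 0.27 in the ratio (adjusted p = 0.0101, and 0.0965 without TGFb array 3). Ccl20, the ligand of Ccr6, rose more in T-effector. Its Treg signal was 9.69, 9.57 and 10.08 with TGFb and 9.15, 7.05 and 7.91 with IL2, and its T-effector signal 11.32, 10.53 and 10.95 with TGFb and 6.62, 6.78 and 7.07 with IL2. It rose by 1.70 ± 0.49 in Treg and 4.16 ± 0.49 in T-effector, and the ratio, -1.63, -0.96 and -0.88 with TGFb and 2.53, 0.27 and 0.84 with IL2, fell by 2.46 ± 0.60 (adjusted p = 0.0381). That call was lost in 8 of the 13 fits (adjusted p up to 0.18 without IL2 array 1), and the ratio change on slide D was -1.15.

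**Figure D4:**
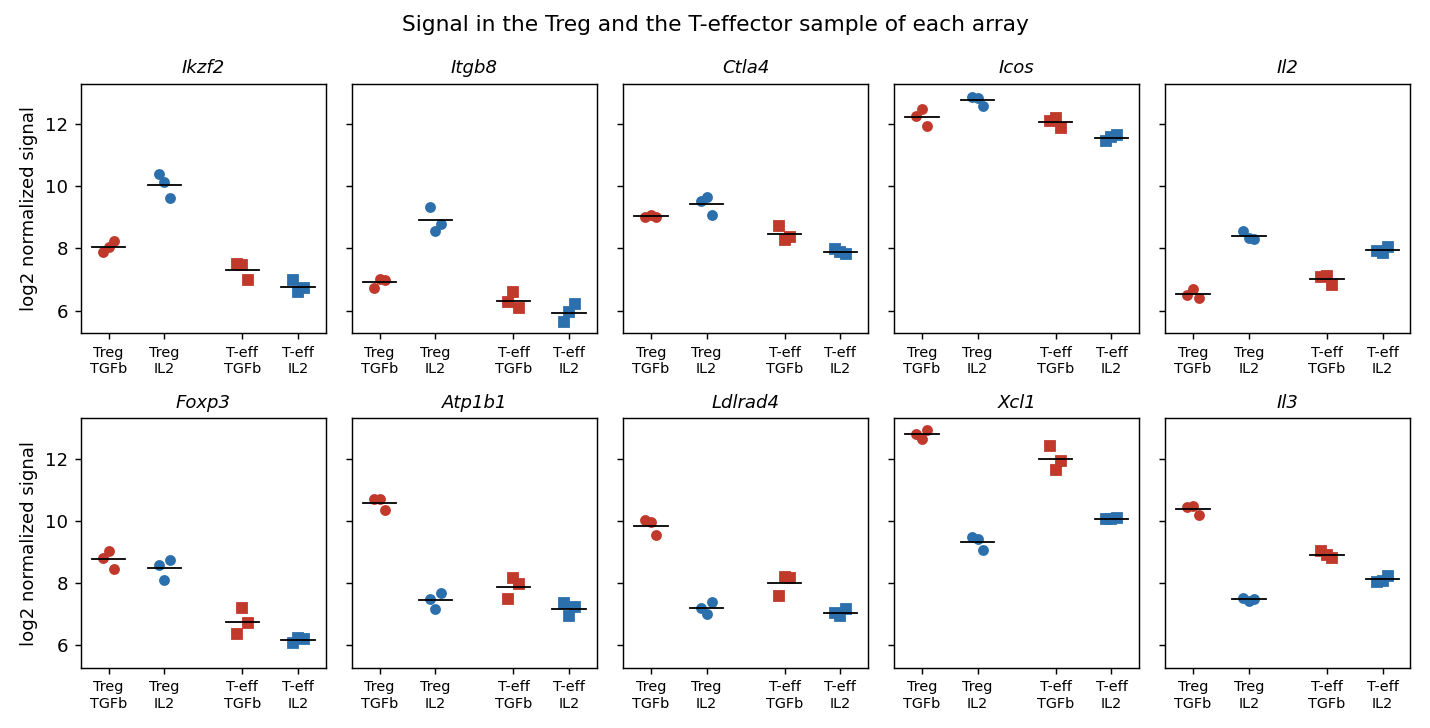
Log2 normalized signal of 10 genes in the Treg sample with TGFb and with IL2, then in the T-effector sample with TGFb and with IL2. Points are the 3 arrays of a group and bars their mean. The Treg sample is lower with TGFb for Ikzf2 and Itgb8 and higher for Atp1b1, Ldlrad4 and Il3, and for Il2 and Xcl1 both samples moved in the same direction.

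Of 16 tested genes of the CD28 family and inhibitory receptors, 0 rose and 5 fell in the ratio (median -0.37, or 0.35 with median centring), 1 rose and 7 fell in Treg, and 2 rose and 3 fell in T-effector. Beside Ctla4 and Icos these were Cd200, Btla and Cd200r1. Cd200, a ligand that inhibits myeloid cells, had a ratio of -1.29, -1.51 and -1.28 with TGFb and 0.14, -0.25 and -0.24 with IL2. Its Treg signal was 10.31, 10.33 and 10.40 with TGFb and 11.96, 11.69 and 11.58 with IL2, and its T-effector signal 11.60, 11.84 and 11.68 with TGFb and 11.82, 11.94 and 11.82 with IL2. It fell by 1.40 ± 0.13 in Treg, gave -0.15 ± 0.13 in T-effector and fell by 1.25 ± 0.16 in the ratio (adjusted p = 0.00276), or gave -0.09 with median centring.

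Btla, an inhibitory receptor that binds Tnfrsf14, fell by 1.71 ± 0.15 in Treg and 0.70 ± 0.15 in T-effector, with a ratio change of -1.01 ± 0.19 (or 0.12 with median centring, and adjusted p = 0.0608 without IL2 array 1). Cd200r1, the receptor of Cd200, fell by 0.79 ± 0.22 in Treg (ratio change -1.06 ± 0.22), a call lost in 3 of the 13 fits (adjusted p up to 0.0993 without IL2 array 1). The ratio of Cd200r1 did not pass with slide as a fixed block (-0.70, adjusted p = 0.103), and with slide as a random block its Treg change did not (-0.69, adjusted p = 0.0585). Its Treg signal was well above background on 2 of 3 TGFb arrays. Of 13 follicular helper genes, a list that shares members with this one, 0 rose and 2 fell in the ratio (median -0.68, or 0.11 with median centring).

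Of 13 TNF receptors 1 rose and 2 fell in the ratio. Tnfrsf13b, the receptor TACI for April and Baff, rose by 1.41 ± 0.12 in Treg and gave 0.34 ± 0.12 in T-effector, and its ratio was 1.12, 0.81 and 1.14 with TGFb and 0.00, -0.14 and 0.03 with IL2 (change 1.07 ± 0.15). Tnfrsf1b, the TNF receptor TNFR2, rose by 1.25 ± 0.19 in T-effector and gave 0.48 ± 0.19 in Treg, and its ratio was 0.46, 0.23 and 0.20 with TGFb and 1.18, 0.94 and 0.96 with IL2 (change -0.77 ± 0.12, or 0.16 with median centring). A second probe of Tnfrsf1b differed by -0.04. Its Treg change passed with slide as a random block (0.46, adjusted p = 0.0472), as did the T-effector change of Tnfrsf13b (0.34, adjusted p = 0.0343). Without TGFb array 3 their calls were lost, with an adjusted p of 0.052 for Tnfrsf13b and 0.0698 for Tnfrsf1b.

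Among chemokine and homing receptors, Ccr2, a receptor for inflammatory chemokines, fell in Treg (adjusted p = 9.7e-06) and in the ratio (adjusted p = 0.0115). With TGFb it was well above background on 1 of 3 arrays in either sample, and no size is given here. Ccr7, which guides T cells into lymph nodes, fell by 0.57 ± 0.16 in T-effector, gave 0.09 ± 0.16 in Treg and rose by 0.66 ± 0.15 in the ratio. Of 16 integrin chains 0 rose and 3 fell in the ratio: Itgb8, Itgav and Itgb3. Itgb3 had a ratio change of -2.21 ± 0.40 with neither sample past the threshold, or -1.25 with median centring, and its second probe differed by -0.57. Its T-effector change passed with slide as a random block (1.27, adjusted p = 0.042) and as a fixed block (1.13, adjusted p = 0.0316), and there its Treg change passed too (-1.08, adjusted p = 0.0356). The T-effector change of Ccr2 passed with slide as a random block (adjusted p = 0.0363), and that of Ccr7 did not with slide as a fixed block (-0.35, adjusted p = 0.19). Without TGFb array 3 the calls of Ccr2 (adjusted p = 0.0906), Ccr7 (0.167) and Itgb3 (0.0777) were lost.

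Of 20 genes usually lower in Treg, 1 rose and 5 fell in the ratio. Il7r, the IL7 receptor chain of resting T cells, had a ratio of -0.67, -0.20 and -0.21 with TGFb and 0.88, 1.14 and 0.94 with IL2, with every sign turned. It fell by 0.89 ± 0.17 in Treg (ratio change -1.25 ± 0.17, or -0.30 with median centring). A second probe of Il7r, well above background in 11 of 12 channels, differed by -0.25. Satb1, a chromatin organizer, fell by 2.51 ± 0.18 in Treg and 1.68 ± 0.18 in T-effector (ratio change -0.83 ± 0.21, or 0.35 with median centring). Lef1, a transcription factor of naive T cells, had a ratio change of -1.03 ± 0.25 with neither sample past the threshold, or 0.14 with median centring, and a second probe differed by -0.18. Its T-effector change passed with slide as a random block (0.43, adjusted p = 0.049), and with slide as a fixed block its ratio did not (-0.81, adjusted p = 0.12).

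Foxo1, which keeps T cells quiescent, rose by 0.83 ± 0.15 in Treg (ratio change 0.67 ± 0.15, and adjusted p = 0.0502 with slide as a fixed block), and its second probe differed by 0.21. Prdm1, the transcription factor Blimp-1, fell by 1.1 ± 0.23 in Treg (ratio change -1.0 ± 0.26, adjusted p = 0.0489, or -0.68 with median centring), a call lost in 9 of the 13 fits. Either sample was well above background on 2 of 3 TGFb arrays. The fit that left out TGFb array 3 lost the calls of Satb1 (adjusted p = 0.181), Lef1 (0.19), Foxo1 (0.123) and Prdm1 (0.221). Of the 13 fits, 9 lost Lef1, 6 Satb1 and 4 Foxo1.

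Of 19 Th1 and cytotoxic genes 3 rose and 0 fell in the ratio (median 0.45, and 0.12 on slide D). Ctsw, a protease of cytotoxic cells, rose by 3.15 ± 0.11 in Treg and 1.91 ± 0.11 in T-effector, and its ratio was 1.15, 0.94 and 1.06 with TGFb and -0.13, -0.25 and -0.27 with IL2 (change 1.25 ± 0.14, adjusted p = 0.00104). Prf1, perforin, moved in T-effector, where it fell by 1.42 ± 0.22, and gave -0.09 ± 0.22 in Treg. Its T-effector signal was 8.0, 7.85 and 7.54 with TGFb and 9.17, 8.99 and 9.31 with IL2, and its ratio rose by 1.33 ± 0.25 (adjusted p = 0.0152, and 0.0855 without TGFb array 3).

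Klrd1, the NK receptor chain CD94, rose by 1.27 ± 0.24 in Treg (ratio change 1.33 ± 0.31), and its partner Klrc1 by 0.88 ± 0.21 (ratio change 0.90 ± 0.21, with Klrc1 well above background in Treg on 2 of 3 IL2 arrays). They belong to 12 tested markers of CD8 T cells and NK cells, of which 2 rose and 0 fell in the ratio, 3 rose in Treg and 0 passed in T-effector, with a median ratio of 0.13 with TGFb and -0.31 with IL2. The third that rose in Treg was Cd8a, by 1.81 ± 0.41, with a ratio change of 1.77 ± 0.52 (adjusted p = 0.069), which passed with slide as a random block (1.49, adjusted p = 0.0358) and as a fixed block (1.21, adjusted p = 0.0194). Ncr1, which defines NK cells, was well above background in 1 of 3 Treg and 0 of 3 T-effector channels with TGFb, and in 1 of 3 and 2 of 3 with IL2. The part of such cells in these changes was not tested. Leaving out TGFb array 3 gave an adjusted p of 0.126 for Klrd1 and 0.195 for Klrc1. Of the 13 fits that each leave out 1 array, 7 lost Klrd1 and 5 Klrc1.

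Of 30 cell cycle genes 3 rose and 0 fell in the ratio, against 2.36% and 3.51% of all genes (median 0.32, and 0.16 on slide D). Cdk4, a kinase of the G1 phase, fell by 0.64 ± 0.14 in T-effector and rose by 1.05 ± 0.19 in the ratio. Ccnb2, a mitotic cyclin, rose by 0.55 ± 0.15 in Treg (ratio change 0.60 ± 0.15), and Top2a, a DNA topoisomerase, passed in neither sample (ratio change 1.11 ± 0.29). Of 22 genes of cholesterol synthesis 2 rose and 0 fell in the ratio (median 0.51, and 0.07 on slide D). Sqle, squalene epoxidase, rose by 0.76 ± 0.18 in Treg (ratio change 0.90 ± 0.22), and Fdft1, squalene synthase, fell by 0.63 ± 0.18 in T-effector (ratio change 0.84 ± 0.19).

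Of 21 genes of glycolysis and hypoxia 1 rose in the ratio, Eno1, an enolase, which fell by 0.86 ± 0.21 in T-effector (ratio change 0.74 ± 0.19). With slide as a fixed block the ratios of Top2a (0.88, adjusted p = 0.165), Ccnb2 (0.43, adjusted p = 0.159), Sqle (0.63, adjusted p = 0.0683) and Eno1 (0.49, adjusted p = 0.102) did not pass. The Treg changes of Ccnb2 (0.35, adjusted p = 0.207) and Sqle (0.58, adjusted p = 0.0685) did not pass with slide as a random block, while the T-effector change of Top2a did (-0.55, adjusted p = 0.00661). Lost without TGFb array 3 were the calls of Cdk4 (adjusted p = 0.101), Ccnb2 (0.183), Top2a (0.215), Sqle (0.171), Fdft1 (0.129) and Eno1 (0.18). Of the 13 fits that each leave out 1 array, 11 lost Ccnb2, 11 Top2a, 10 Sqle, 9 Eno1, 5 Fdft1 and 2 Cdk4.

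**Figure D5:**
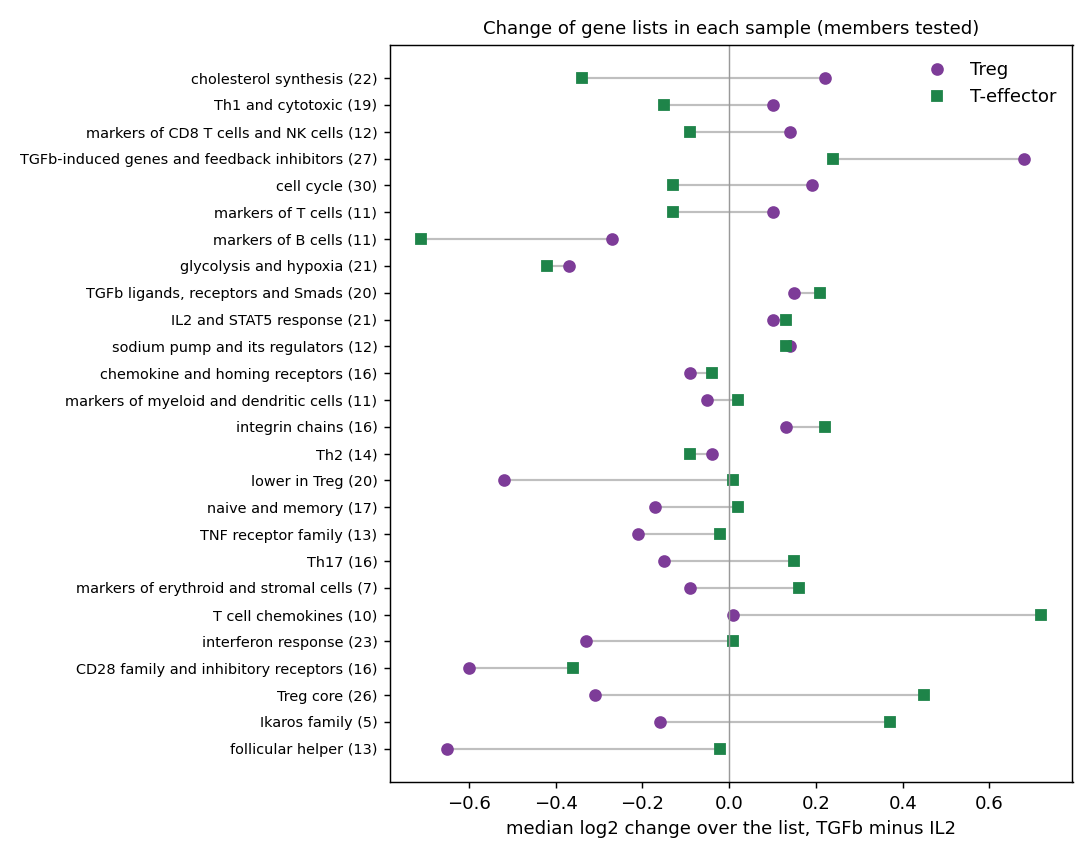
Median log2 change with TGFb over each gene list in the Treg sample and in the T-effector sample. The Treg core list lies at -0.31 in Treg and 0.45 in T-effector, and the TGFb-induced genes at 0.68 in Treg and 0.24 in T-effector.

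Genes with large changes in each class included several outside the lists. Cd24a, a surface glycoprotein of immature lymphocytes, had a ratio of 1.94, 1.76 and 2.18 with TGFb and -0.70, 0.19 and 0.13 with IL2. Its Treg signal rose by 2.19 ± 0.22, T-effector gave -0.05 ± 0.22, and the ratio rose by 2.24 ± 0.25 (adjusted p = 0.00107). Mical2, an actin-oxidizing enzyme, was not well above background in either sample with IL2. Its mean Treg signal was 9.56 with TGFb and 5.99 with IL2. The mean T-effector signal was 7.2 with TGFb and 6.04 with IL2. The ratio passed (adjusted p = 0.000135), but on the IL2 arrays it sets one dim signal against another, and no size is given here. Lhx6, a LIM homeobox factor, had a Treg signal of 9.29, 9.19 and 9.39 with TGFb and 6.02, 6.13 and 6.12 with IL2, well above background on 1 of 3 IL2 arrays. It passed in Treg (adjusted p = 7.52e-11). Its mean T-effector signal was 7.37 with TGFb and 6.11 with IL2, and there it was not well above background on any IL2 array. Its ratio passed (adjusted p = 0.000304), with no size given here.

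Csta2, a stefin that inhibits cysteine proteases, had a Treg signal of 6.91, 7.11 and 7.01 with TGFb and 10.09, 10.17 and 10.24 with IL2. It fell by 3.14 ± 0.18 in Treg and 0.75 ± 0.18 in T-effector (ratio change -2.39 ± 0.20), and signal from closely related stefin genes cannot be told apart from it. Metrnl, a secreted factor, fell by 2.45 ± 0.25 in Treg and 0.88 ± 0.25 in T-effector (ratio change -1.57 ± 0.28, or -0.80 with median centring, adjusted p = 0.11 without TGFb array 3). Rgcc, a cell cycle regulator, rose by 0.77 ± 0.16 in Treg and 2.39 ± 0.16 in T-effector, and its ratio was 0.30, 0.81 and 0.55 with TGFb and 2.34, 2.31 and 1.92 with IL2 (change -1.62 ± 0.21, or -0.62 with median centring).

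H1f5, a linker histone, moved in opposite directions in the samples. It rose by 1.24 ± 0.22 in Treg and fell by 0.89 ± 0.22 in T-effector, and its ratio was 1.02, 0.99 and 1.15 with TGFb and -0.66, -1.13 and -1.31 with IL2. Ighm, the heavy chain of IgM, did likewise. It rose by 1.18 ± 0.13 in Treg and fell by 0.72 ± 0.13 in T-effector, and its ratio was 2.20, 2.33 and 2.12 with TGFb and 0.31, 0.37 and 0.15 with IL2 (change 1.90 ± 0.16, adjusted p = 0.000214). Of 11 tested B cell markers 1 rose (Ighm) and 1 fell (Vpreb3, -0.68 ± 0.18, or -0.17 with median centring) in the ratio, 1 rose and 3 fell in Treg, and 0 rose and 6 fell in T-effector, with a median ratio of -0.04 with TGFb and -0.16 with IL2. The Vpreb3 ratios of the TGFb and IL2 arrays overlap. Its second probe, well above background in 8 of 12 channels, differed by 0.23, the other way. Cd79b, the signalling chain of the B cell receptor, fell by 1.72 ± 0.26 in Treg and 2.70 ± 0.26 in T-effector.

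Of 11 myeloid and dendritic cell markers 2 rose in the ratio, Cd74, the invariant chain of MHC class II, and H2-Aa, a class II chain. Cd74 fell by 0.78 ± 0.14 in T-effector (ratio change 0.73 ± 0.17). H2-Aa fell in Treg (adjusted p = 0.00299) and in T-effector (adjusted p = 2.48e-06), and its ratio passed (adjusted p = 0.0359). With TGFb it was well above background on 2 of 3 arrays in Treg and 1 of 3 in T-effector, and no size is given here. With slide as a fixed block the ratios of Vpreb3 (-0.72, adjusted p = 0.149), Cd74 (0.62, adjusted p = 0.0518) and H2-Aa (adjusted p = 0.114) did not pass. With slide as a random block the T-effector change of Vpreb3 passed (0.95, adjusted p = 0.0193) and the Treg change of Cd2 did not (0.56, adjusted p = 0.0623). The list's median ratio was -0.04 with TGFb and 0.14 with IL2. Of 11 T cell markers 1 rose, Cd2, an adhesion receptor (ratio change 0.87 ± 0.16), and of 7 erythroid and stromal markers 0 passed in the ratio. The part of other cells in these changes was not tested. Leaving out TGFb array 3 gave an adjusted p of 0.251 for Vpreb3, 0.16 for Cd74, 0.183 for H2-Aa and 0.0741 for Cd2. Of the 13 fits that each leave out 1 array, 9 lost Vpreb3, 8 H2-Aa, 5 Cd74 and 2 Cd2.

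Among the deepest falls were genes that only the array's design file names. Of the 42 genes whose ratio fell by more than 2.5, 33.3% are named by that file alone, against 23.3% of all genes that fell, 15.4% of those that rose and 21.9% of all tested. Kcna7, a potassium channel, had a ratio of -2.56, -2.17 and -2.32 with TGFb and 1.97, 1.62 and 1.24 with IL2. Acsf2, an acyl-CoA synthetase, had a ratio of -2.19, -2.12 and -2.41 with TGFb and 1.91, 1.5 and 1.32 with IL2. In T-effector they rose by 2.31 ± 0.56 and 2.16 ± 0.47, and Acsf2 fell by 1.75 ± 0.47 in Treg (ratio changes -4.00 ± 0.65 and -3.91 ± 0.63). The Treg change of Acsf2 did not pass with slide as a random block (-1.22, adjusted p = 0.0808), and that of Kcna7 did with slide as a fixed block (-1.56, adjusted p = 0.0475).

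Dlx5, a homeobox factor, passed in the ratio and in neither sample by itself. The Treg signal was 7.99, 6.43 and 8.10 with TGFb and 8.38, 9.52 and 7.85 with IL2, and the T-effector signal 9.91, 7.38 and 10.43 with TGFb and 6.73, 8.22 and 6.99 with IL2. The ratio was -1.92, -0.95 and -2.34 with TGFb and 1.65, 1.29 and 0.86 with IL2, with no overlap (change -3.16 ± 0.63), and Treg was well above background on 2 of 3 TGFb arrays. The T-effector change passed with slide as a random block (2.01, adjusted p = 0.0187), as a fixed block (2.10, adjusted p = 0.00416) and without slide B (2.90, adjusted p = 0.00881). Without TGFb array 3 the adjusted p was 0.0726 for Kcna7, 0.0731 for Acsf2 and 0.133 for Dlx5.

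Of the 61 genes named here whose ratio passed, 19 kept the call in all 13 fits that leave out 1 array. Ikzf2, Itgb8, Icos, Plagl1, Il2, Il7r, Id2, Cd200, Csta2 and Rgcc were lower with TGFb (with median centring 7 of these calls were lost, with changes of 0.15 for Id2, 0.08 for Icos, -0.09 for Cd200, -0.19 for Il2, -0.30 for Il7r, -0.61 for Plagl1 and -0.62 for Rgcc), and Atp1b1, Ldlrad4, Il3, Ctsw, Ighm, Mical2, Lhx6, Cd24a and H1f5 were higher. Itgb8, Mical2 and Lhx6 are among these although 1 condition left a sample of theirs dim on all 3 arrays. Of the 61 genes, 29 were still called without slide B, which ended the calls of Itgb8 and Xcl1 among others, and 13 where no spot was left out when fitting the background model, and there the adjusted p of Ikzf2 was 0.0921. Over all genes, the TGFb and IL2 arrays did not overlap in the ratio for 5211 (26.2%), with TGFb higher for 2115 (10.6%) and lower for 3096 (15.6%).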

How the data were processed

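Agilent two-colour arrays of mouse CD4+ cells were read from the deposited scanner files, whose red and green intensities (mean and local background per spot) the authors made with Agilent Feature Extraction 9.5.1.1, per the submitters' processing notes. The deposited value table holds the authors' log2 values per condition, whose direction was set against the arrays (correlation of 0.77 for TGFb and 0.80 for IL2 with the array means). Its scale was not otherwise stated, its medians were -0.0544 for TGFb and -0.0831 for IL2, and it served as an alternative only.

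The normexp method with offset 50 corrected the background, leaving spots with a marked local background out of its parameter fit, and arrays were normalized by loess. The dye of each sample came from the labels. limma 3.58.1 (R 4.3.3) fitted the ratios with condition and dye (8 residual degrees of freedom) and, after Aquantile scaling, the 26 channels with an intraspot correlation of 0.419. Both gave p-values adjusted by Benjamini-Hochberg. Probes had to be well above background in at least 3 channels and missing on at most 3 arrays: 28923 of 41174 probes passed, and the brightest probe stood for each of 19901 genes. Of these genes 76 lacked at least 1 of the 6 arrays. The number of arrays limits the precision. Probes were named through accessions (22951), symbols (6659) or synonyms (3109) in RefSeq tables, and 8455 kept the array file's name. The code was tested on simulated data.

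The members and lists were chosen with earlier results of these data known. Named genes are 10 anchors, the largest ratio changes past the threshold in each list (3 genes at most), and up to 4 genes with the largest change per class and direction whose arrays do not overlap, of which a part is described. Gpr83, Plagl1, Jun, Foxo1, Cd8a, the second probes, and list members that did not pass in the ratio were named after their values were seen. Whether array numbers pair the arrays is not known. With condition and dye taken out of the ratios, the remainders of same-numbered arrays correlated at -0.55, 0.51 and -0.55. Those of differently numbered arrays correlated at -0.49 to 0.76. Within a group these remainders offset each other, so the values cannot decide whether the numbers pair the arrays. Some genes are not reported here.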

Additional observations from a re-analysis of the deposited data

Results flagged for a closer look

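In 61 of the genes described above the change with TGFb differed between the Treg and the T-effector sample by the test of the difference itself, which is the test of the ratio (limma, adjusted p under 0.05). The value after each gene is the Treg change minus the T-effector change on the log2 scale. For Itgb8, Mical2, Lhx6, Ccr2 and H2-Aa a sample was well above background on at most 1 of 3 arrays of a group. The size of their value is not to be read as measured. For Il2, Cd200r1, Prdm1, Dlx5, Klrc1 and Tgfb3 a sample was well above background on 2 of 3 arrays of a group.

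Where only the Treg sample passed, the ratio fell for Itgb8 (-2.45), Ikzf2 (-2.42), Junb (-1.37), Cd200 (-1.25), Il7r (-1.25), Cd200r1 (-1.06), Id2 (-1.04), Prdm1 (-1.0), Ccr2 (-0.95) and Tnfrsf9 (-0.89). With Treg again the only sample past the threshold, it rose for Atp1b1 (2.38), Cd24a (2.24), Klrd1 (1.33), Tnfrsf13b (1.07), Ahr (0.92), Klrc1 (0.90), Sqle (0.90), Tgfb3 (0.89), Cd2 (0.87), Bmpr2 (0.78), Foxo1 (0.67), Ccnb2 (0.60) and Jun (0.49). Where only the T-effector sample passed, the ratio fell for Kcna7 (-4.00), Il9 (-2.32), Plagl1 (-1.34), Gpr83 (-0.98), Tnfrsf1b (-0.77) and Itgav (-0.55). It rose, again with T-effector the only sample past the threshold, for Prf1 (1.33), Cdk4 (1.05), Fdft1 (0.84), Eno1 (0.74), Cd74 (0.73) and Ccr7 (0.66). Among genes with both samples changed in the same direction the ratio fell for Ccl20 (-2.46), Csta2 (-2.39), Rgcc (-1.62), Metrnl (-1.57), Btla (-1.01), Il2 (-0.91) and Satb1 (-0.83). In the same class it rose for Mical2 (2.36), Il3 (2.11), Lhx6 (2.01), Ldlrad4 (1.56), Xcl1 (1.56), Ctsw (1.25), Sgk1 (1.21) and H2-Aa (0.62). With the samples changed in opposite directions the ratio fell for Acsf2 (-3.91) and Icos (-1.09). The ratio of 2 genes changed in opposite directions rose: H1f5 (2.13) and Ighm (1.90). Neither sample passed by itself where the ratio fell for Dlx5 (-3.16), Itgb3 (-2.21), Swap70 (-2.03), Lef1 (-1.03), Ctla4 (-0.86) and Vpreb3 (-0.68). The same held for Top2a (1.11), which rose. Under median centring the signs of Ctla4, Id2, Lef1, Icos, Tnfrsf9, Tnfrsf1b, Itgav, Btla, Satb1 and Gpr83 were reversed.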

How the results depend on the processing

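The counts of genes past the threshold (1168 in the ratio, 1584 in Treg and 931 in T-effector) depended on the setting, and the cause was not tested. In the ratio the count was 3836 with Agilent's processed signals, 74 with normexp on all spots (60.8% higher, against 40.2%), 8403 with median centring (88.7% higher), 4159 with the spatial trend removed, 502 with 6 arrays only (25.9% higher), 1796 with slide as a random block and 230 without slide B (52.2% higher). Without the dye term the ratio count was 921. In Treg the count was 2417 with Agilent's processed signals. In T-effector it was 1506 with Agilent's processed signals, 604 with 6 arrays only, 1952 with slide as a fixed block and 1408 without slide B. It was 3059 with slide as a random block, where each sample was also fitted by itself. Leaving out 1 array at a time, the ratio count lay between 81 and 1987, the Treg count between 1045 and 1992, and the T-effector count between 469 and 1098. With the array number as a replicate block 782 genes passed in the ratio, 1562 in Treg and 844 in T-effector. Whether the numbers pair the arrays is not known.

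Of the 1168 genes, the number still called with the same sign was 1163 with the spatial trend removed, 1142 with slide as a random block, 1122 with Agilent's processed signals, 744 with median centring, 432 with 6 arrays only, 204 without slide B, 81 without TGFb array 3 and 74 with normexp on all spots. The sign was the same in all 1168 in these settings except median centring, with 985. Among the called genes named in the text the ratio change reversed with median centring, where the median over all genes was 0.43, for Ctla4 (0.02), Id2 (0.15), Lef1 (0.14), Icos (0.08), Tnfrsf9 (0.26), Tnfrsf1b (0.16), Itgav (0.29), Btla (0.12), Satb1 (0.35) and Gpr83 (0.11), and in no other of these settings. Genes with no call in the ratio that reversed there included Tgfbr1 (0.91), Klf10 (0.84), Tnfrsf18 (0.86) and Tnfrsf4 (0.71). Capg (1.07), Cd83 (0.90), Nt5e (0.47) and Foxp3 (0.15) did so too. With slide as a fixed block Foxp3 (0.03), Nt5e (0.49) and Smad7 (-0.03) reversed, and with slide as a random block Nt5e (0.18). By the authors' deposited table, 60 of 60 called genes named in the text had the same sign, with no test. The arrays without TGFb or IL2 alone (TGFb with IL6, IL6 alone) entered only through the spread and the dye estimate, and leaving each out was chosen after seeing the data. Signal over background limits Mical2, Lhx6, Itgb8, Ccr2 and H2-Aa. The sizes of their ratio changes are printed only among the flagged results and are not to be read as measured.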
